A study of Homo sapiens with 9 samples.

Results

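To describe the EGF receptor family and its ligands in lung cancer cells depleted of Cyclin K, 10 genes were selected by symbol. All 10 were found among the 31080 reference entries of the data, where rows sharing a reference gene count once. The genes were 3 receptors (EGFR, ERBB2 and ERBB3), 6 ligands (AREG, EREG, HBEGF, TGFA, BTC and EPGN) and the receptor inhibitor ERRFI1. RNA was measured by sequencing in 9 libraries of A549, an established line of human lung adenocarcinoma cells. Of these libraries 3 came from cells given a scrambled (control) siRNA, 3 from cells given siCyclin K#1 and 3 from cells given siCyclin K#2, which are different siRNAs against the same mRNA, each used at 50 nM for 48 h. No other treatment was applied, and the labels do not say whether the 3 libraries of a group came from separate cultures, so the p-values measure the spread between these libraries, which may be technical. Levels are FPKM, fragments scaled to transcript length and to the total of the library, so that genes can be compared per length and a level is a share of the sequenced RNA. In such bulk libraries, fewer cells expressing a gene and less RNA per cell cannot be told apart.

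The EGF receptor family consists of receptor tyrosine kinases that pair with each other when a ligand binds and then signal through RAS, ERK, PI3K and STAT proteins. ERBB2 has no known ligand of its own and acts as a partner of the others, and ERBB3 has little kinase activity and relies on its partners. The ligands are made as membrane-bound precursors and are released by metalloproteases. ERRFI1, also called MIG6, binds the kinase domain of these receptors and is induced by the same signaling, which makes it a feedback inhibitor. In lung adenocarcinoma EGFR is known as an oncogene and as a drug target. Cyclin K is the partner of the kinases CDK12 and CDK13, which phosphorylate RNA polymerase II.

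The FPKM values were scaled to 31333749 to 33767961 fragments per library, as estimated from the FPKM steps of low genes. These counted fragments are called reads below. CCNK, which encodes Cyclin K, was at 6.90, 7.06 and 7.10 FPKM in the scrambled libraries, at 0.891, 0.816 and 0.720 with siCyclin K#1 and at 0.809, 0.920 and 0.802 with siCyclin K#2. The siCyclin K libraries thus kept 11.5% and 12.03% of the scrambled mean. Of the epithelial markers, KRT8 (49.7 to 105 FPKM) and KRT18 (69.8 to 91.0) were abundant, CDH1 was low (1.19 to 4.60) and EPCAM was at or near 0 (0 to 0.279). The markers PTPRC, PECAM1, VWF, CDH5, DCN and PDGFRB of leukocytes, endothelium and fibroblasts were at or near 0, whereas LUM was at 0.297 to 2.70 and CD68, which is not restricted to leukocytes, at 30.0 to 39.0.

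Of the ligand genes 4 lie side by side on chromosome 4 (GRCh38), within 486.2 kb. EPGN is at chr4:74308473-74315307, EREG at chr4:74365143-74388751 and AREG at chr4:74445134-74455009, all on the plus strand, and BTC is at chr4:74744759-74794686 on the minus strand. The end of EREG and the start of AREG are 56.4 kb apart. The 250 bases before the start of each of these neighbours (RefSeq, GRCh38.p14) are printed because the levels of these genes went opposite ways with siCyclin K#1, as described further on. With siCyclin K#2 both genes rose. A link between these sequences and the levels was not tested. The windows are chr4:74444886-74445135 for AREG and chr4:74364895-74365144 for EREG, both on the plus strand, and capitals mark the cyclic AMP response element (CRE), TGACGTCA.
AREG: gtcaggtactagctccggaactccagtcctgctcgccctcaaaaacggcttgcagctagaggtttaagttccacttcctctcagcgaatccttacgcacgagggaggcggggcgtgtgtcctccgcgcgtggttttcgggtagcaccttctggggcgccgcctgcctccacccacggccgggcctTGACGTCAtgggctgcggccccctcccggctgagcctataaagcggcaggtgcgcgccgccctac
EREG: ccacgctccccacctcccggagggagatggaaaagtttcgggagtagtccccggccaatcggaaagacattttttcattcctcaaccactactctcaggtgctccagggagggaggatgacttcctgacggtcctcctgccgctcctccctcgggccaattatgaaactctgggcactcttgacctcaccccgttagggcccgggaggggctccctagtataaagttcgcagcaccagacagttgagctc
AREG has this element 65 bases before its start, and EREG has none in the window. The search used windows of 300 bases (250 before and 50 after the start) on both strands, for CRE (TGACGTCA), AP-1 (TGACTCA) and TCF (CTTTGAT) letters, which do not overlap each other in these windows. Of 35116 promoters 1.85% held CRE, 4.95% AP-1 and 2.62% TCF. Promoters were listed for 9 of the 10 genes, in 11 entries, and an inner promoter of EGFR was the only other one with a match, holding AP-1 letters at 2 places.

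The other genes lie apart. EGFR is at chr7:55019021-55211628 (plus strand), ERBB2 at chr17:39687914-39730426 (plus), ERBB3 at chr12:56076799-56103505 (plus), HBEGF at chr5:140332843-140346631 (minus), TGFA at chr2:70447280-70554193 (minus) and ERRFI1 at chr1:8004404-8026308 (minus). ERBB3 is reported by the files only in a row joined with its neighbours PA2G4 and AC034102.2, whose RNA cannot be told apart from its own, so this value is called the ERBB3 row. EREG is on a locus assembled by StringTie, with no other gene in it, so its FPKM depends on the length of the assembled transcripts. Exons of EGFR, ERBB2 and ERRFI1 overlap genes of the opposite strand (EGFR-AS1, MIEN1 and PGAP3, and AL034417.4), and it is not stated whether the libraries kept the strand. EGFR-AS1 was at 0.0966 to 0.407 FPKM and AL034417.4 at 0.0992 to 0.295, against levels of over 30 FPKM for the genes they overlap.

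In the scrambled libraries the receptor EGFR was the most abundant of the 10 genes (42.5 FPKM ± 1.81, SD, n = 3), followed by ERRFI1 (33.8 ± 1.38) and the ERBB3 row (29.9 ± 0.966). Below them came HBEGF (8.95 ± 1.04), EREG (7.56 ± 0.253), TGFA (6.05 ± 0.125), ERBB2 (4.60 ± 0.199) and AREG (4.10 ± 0.337). EPGN (0.196 ± 0.112) and BTC (0.0981 ± 0.115) were close to the detection limit, and these were the only neighbours in this order whose libraries overlapped. With either siRNA against Cyclin K, ERRFI1 stood above EGFR and AREG became the first of the ligands. With siCyclin K#1 the libraries of AREG overlapped those of ERBB2, the next in order, and with siCyclin K#2 those of EREG, which in turn overlapped those of TGFA.

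**Figure D1:**
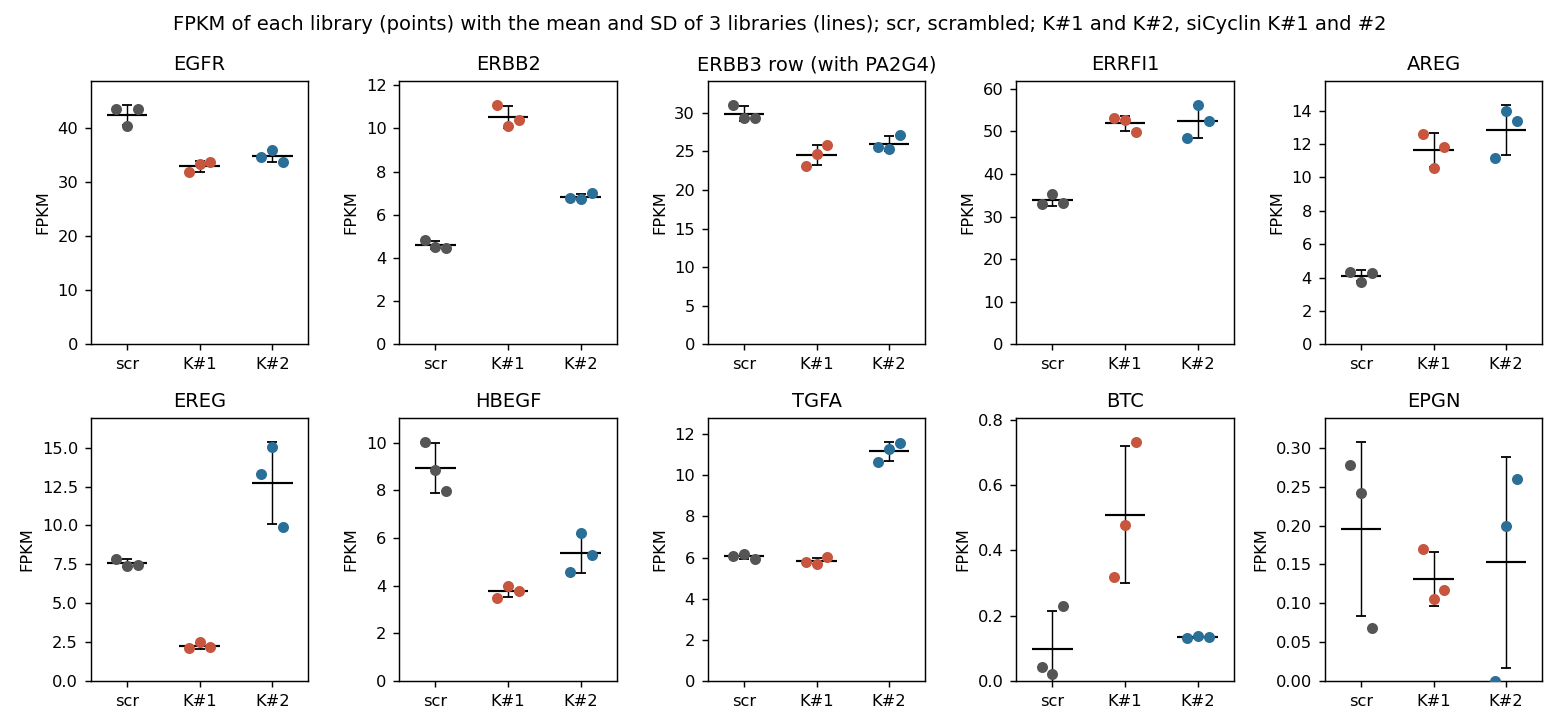
FPKM (y axis, linear and starting at 0, with its own scale in each panel) of the 10 genes in each library by group (x axis), with the mean and SD of 3 libraries as lines. AREG and ERRFI1 lie higher with both siRNAs, EREG lies on opposite sides of the scrambled libraries, and TGFA lies apart only with siCyclin K#2.

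To ask which of these genes changed upon Cyclin K depletion, each siRNA was compared with the scrambled libraries by limma on log2(FPKM + 0.1) across 21048 genes, with Benjamini-Hochberg adjustment, and "changed" means an adjusted p under 0.05. All 10 genes passed the filter on low values (at least 0.1 FPKM in at least 3 libraries). With siCyclin K#1, ERBB2, AREG, BTC and ERRFI1 rose, EGFR, the ERBB3 row, EREG and HBEGF fell, and TGFA and EPGN did not pass the test. These are 8 of 10 genes, against 44.8% of all genes tested (26.8% higher and 18.1% lower). With siCyclin K#2, ERBB2, AREG, EREG, TGFA and ERRFI1 rose, EGFR, the ERBB3 row and HBEGF fell, and BTC and EPGN did not pass. These are again 8 of 10, against 34.9% of all genes (19.8% higher and 15.2% lower). The 10 genes were chosen with earlier results of these data known. The libraries of the 2 groups did not overlap for 8 of the genes with siCyclin K#1 (53.5% of all genes) and for 8 with siCyclin K#2 (46.8%). By the threshold of the study's methods, a fold change over 3 with an unadjusted p under 0.01, EREG and BTC passed with siCyclin K#1 (2 of 10, 4.67% of all genes) and AREG with siCyclin K#2 (1 of 10, 1.94%). Both counts depended on the constant added before taking logs, and fell to 0 with a constant of 0.5 or 1.

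The median log2 fold change of the 10 genes was -0.17 with siCyclin K#1, beside 0.10 over all genes, and 0.48 with siCyclin K#2, beside 0.01. The median of the absolute log2 fold change was 0.90 with siCyclin K#1 (0.46 over all genes) and 0.59 with siCyclin K#2 (0.36 over all genes). The family therefore moved in both directions with each siRNA. The shift of all genes with siCyclin K#1 was 0.05 after median-ratio rescaling. It was -0.02 after quantile normalization, which gives all libraries the same distribution and so removes such a shift by design. Quantile normalization changed the direction of no gene of the family against the scrambled libraries. The 2 comparisons share the scrambled libraries.

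**Figure D2:**
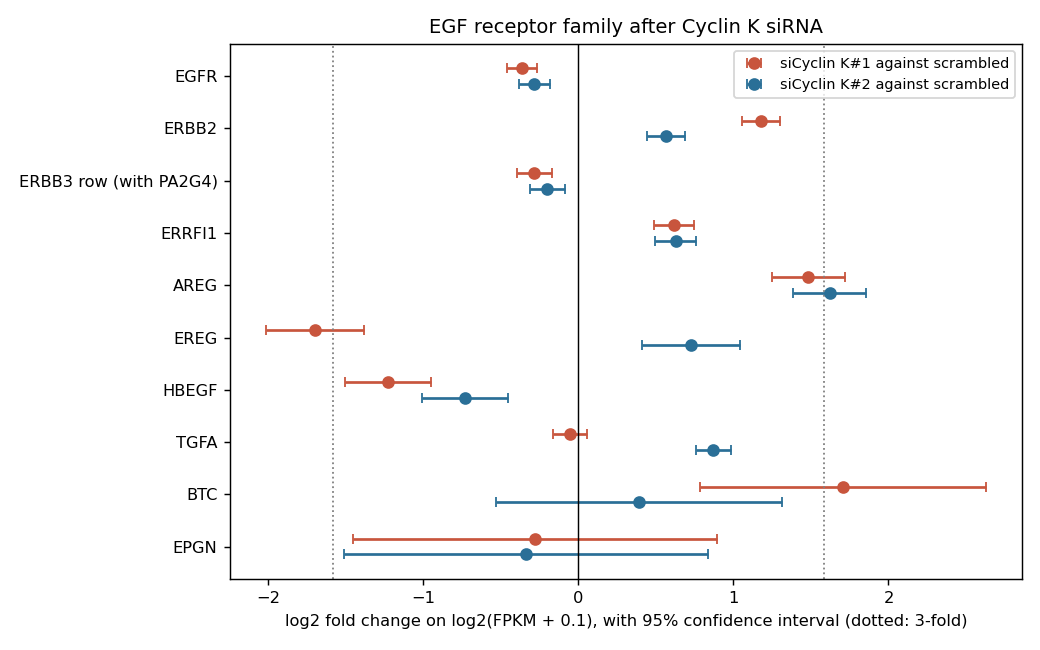
Log2 fold change against the scrambled libraries (on log2(FPKM + 0.1)) of the 10 genes with each siRNA, with 95% confidence intervals from limma as bars. Intervals of EREG lie on opposite sides of 0 (-1.70 with siCyclin K#1 and 0.72 with siCyclin K#2), and those of EPGN, of TGFA with siCyclin K#1 and of BTC with siCyclin K#2 span 0. Dotted lines mark a 3-fold change.

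Among the receptors, EGFR mRNA was at 43.6, 40.4 and 43.6 FPKM in the scrambled libraries, at 31.8, 33.3 and 33.8 with siCyclin K#1 and at 34.8, 36.0 and 33.8 with siCyclin K#2. Every Cyclin K-depleted library was below every scrambled one. The log2 fold change was -0.37 (SE 0.04, limma adjusted p = 0.00014) for siCyclin K#1 and -0.28 (SE 0.04, adjusted p = 0.00092) for siCyclin K#2. EGFR thus kept 77.6% and 82.0% of its scrambled mean, a small decrease that was larger than the spread between libraries.

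ERBB2, the partner receptor, was at 4.82, 4.53 and 4.44 FPKM with scrambled siRNA, at 11.1, 10.1 and 10.4 with siCyclin K#1 and at 6.76, 6.74 and 6.998 with siCyclin K#2. The 3 groups did not overlap, and ERBB2 was highest with siCyclin K#1. On the log2 scale it rose by 1.18 (SE 0.05, limma adjusted p = 4.7e-07) with siCyclin K#1 and 0.56 (SE 0.05, adjusted p = 6.1e-05) with siCyclin K#2. Of the genes overlapping ERBB2 on the other strand, MIEN1 had means of 7.09, 5.94 and 7.61 FPKM in the scrambled, siCyclin K#1 and siCyclin K#2 libraries, and PGAP3 had means of 3.64, 4.36 and 3.76. Their part in the ERBB2 values was not tested.

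The ERBB3 row was at 31.0, 29.3 and 29.4 FPKM with scrambled siRNA, at 23.1, 24.7 and 25.8 with siCyclin K#1 and at 25.6, 25.3 and 27.2 with siCyclin K#2. The row fell with both siRNAs, by 0.29 (SE 0.05, limma adjusted p = 0.0014) and by 0.20 (SE 0.05, adjusted p = 0.013) on the log2 scale. How much of this belongs to ERBB3 and how much to PA2G4, a growth-regulating protein that binds ERBB3, cannot be told apart. The call with siCyclin K#2 was lost when limma was fitted without the trend (adjusted p = 0.0506).

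ERRFI1, the feedback inhibitor, was at 32.9, 35.4 and 33.1 FPKM with scrambled siRNA, at 53.1, 52.8 and 49.8 with siCyclin K#1 and at 48.5, 56.2 and 52.4 with siCyclin K#2. All 6 depleted libraries were above the scrambled ones, and the ranges of the siRNAs overlapped. The rise on the log2 scale was 0.62 (SE 0.06, limma adjusted p = 3.2e-05) with siCyclin K#1 and 0.63 (SE 0.06, adjusted p = 4.7e-05) with siCyclin K#2.

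Among the ligands, AREG (amphiregulin, a ligand of EGFR) had the largest rise shared by both siRNAs. It was at 4.31, 3.72 and 4.28 FPKM in the scrambled libraries (195 to 240 reads), at 12.6, 10.6 and 11.8 with siCyclin K#1 (546 to 671 reads) and at 11.2, 14.0 and 13.4 with siCyclin K#2 (592 to 767 reads). The lowest depleted library was thus well above the highest scrambled one. The log2 fold change was 1.48 (SE 0.10, limma adjusted p = 5.1e-06) with siCyclin K#1 and 1.62 (SE 0.10, adjusted p = 5.8e-06) with siCyclin K#2, and the ratios of the means were 2.84 and 3.13. Without scrambled replicate 2 or siCyclin K#2 replicate 2, or after median-ratio or quantile rescaling, AREG with siCyclin K#2 stayed changed but was no longer past 3-fold.

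EREG (epiregulin, which binds EGFR and ERBB4) was the gene on which the siRNAs disagreed most. It was at 7.85, 7.40 and 7.43 FPKM with scrambled siRNA, at 2.12, 2.48 and 2.21 with siCyclin K#1 and at 13.3, 15.1 and 9.87 with siCyclin K#2. The scrambled libraries lay between the siRNA groups, with no overlap. The log2 fold change was -1.70 (SE 0.14, limma adjusted p = 1.4e-05) with siCyclin K#1 and 0.72 (SE 0.14, adjusted p = 0.0034) with siCyclin K#2. The siCyclin K#1 libraries kept 30.0% of the scrambled mean, while siCyclin K#2 libraries were at 1.69 times that mean.

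HBEGF, the heparin-binding ligand of EGFR and ERBB4, was at 10.0, 8.84 and 7.97 FPKM with scrambled siRNA, at 3.50, 3.997 and 3.77 with siCyclin K#1 and at 4.58, 6.22 and 5.30 with siCyclin K#2. It was the one ligand that fell with both siRNAs, and no depleted library reached the scrambled range. The log2 fold change was -1.23 (SE 0.12, limma adjusted p = 4.6e-05) with siCyclin K#1 and -0.73 (SE 0.12, adjusted p = 0.0016) with siCyclin K#2.

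TGFA (transforming growth factor alpha, a ligand of EGFR) was at 6.05, 6.18 and 5.93 FPKM with scrambled siRNA, at 5.77, 5.70 and 6.004 with siCyclin K#1 and at 10.6, 11.3 and 11.6 with siCyclin K#2. With siCyclin K#1 the libraries overlapped the scrambled ones, with a log2 fold change of -0.05 (95% interval -0.17 to 0.06, limma adjusted p = 0.41). With siCyclin K#2 it rose by 0.87 (SE 0.05, limma adjusted p = 2.8e-06), and the lowest library was above all others.

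BTC (betacellulin, which binds EGFR and ERBB4) rested on few reads. It was at 0.0421, 0.0223 and 0.230 FPKM (4, 2 and 21 reads) with scrambled siRNA, at 0.318, 0.476 and 0.733 (29, 42 and 68 reads) with siCyclin K#1 and at 0.133, 0.139 and 0.134 (12, 13 and 12 reads) with siCyclin K#2. The siCyclin K#1 libraries were above all others, though 1 scrambled library was well above the other two. BTC rose with siCyclin K#1 by 1.71 on the log2 scale (SE 0.40, limma adjusted p = 0.0078), and the value with siCyclin K#2 was 0.39 (95% interval -0.53 to 1.32, adjusted p = 0.51). The size of the first depended on the constant added, at 0.45 with 1 and 2.73 with 0.01. It also fell under 3-fold without scrambled replicate 1 (1.54), without scrambled replicate 2 (1.44) or without siCyclin K#1 replicate 3 (1.46), while it stayed changed in each case.

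EPGN (epigen, a ligand of EGFR) was at 0.278, 0.242 and 0.0680 FPKM with scrambled siRNA (4 to 17 reads), at 0.170, 0.106 and 0.117 with siCyclin K#1 (6 to 10 reads) and at 0, 0.199 and 0.260 with siCyclin K#2 (0 to 15 reads). All 3 groups overlapped, and no difference was detectable at this depth. The log2 fold change was -0.28 (95% interval -1.46 to 0.89, limma adjusted p = 0.70) with siCyclin K#1 and -0.34 (-1.51 to 0.84, adjusted p = 0.67) with siCyclin K#2.

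To compare the make-up of the ligand RNA, the FPKM of the 6 ligands were added up in each library. The sum was 28.6, 26.4 and 25.9 FPKM in the scrambled libraries, 24.5, 23.3 and 24.7 in those of siCyclin K#1 and 39.8, 46.9 and 40.5 in those of siCyclin K#2. It was thus highest with siCyclin K#2 and slightly below the scrambled range with siCyclin K#1. AREG made up 14.1 to 16.5% of the sum in scrambled libraries, 45.3 to 51.4% after siCyclin K#1 and 28.05 to 33.0% after siCyclin K#2. HBEGF went from the largest share (30.7 to 35.2%) to 14.3 to 17.1% and 11.5 to 13.2%. EREG held 27.5 to 28.7% in scrambled libraries, 8.65 to 10.6% after siCyclin K#1 and 24.4 to 33.4% after siCyclin K#2, so that its share with siCyclin K#2 overlapped the scrambled one while its level was higher. These shares are descriptions and were not tested.

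**Figure D3:**
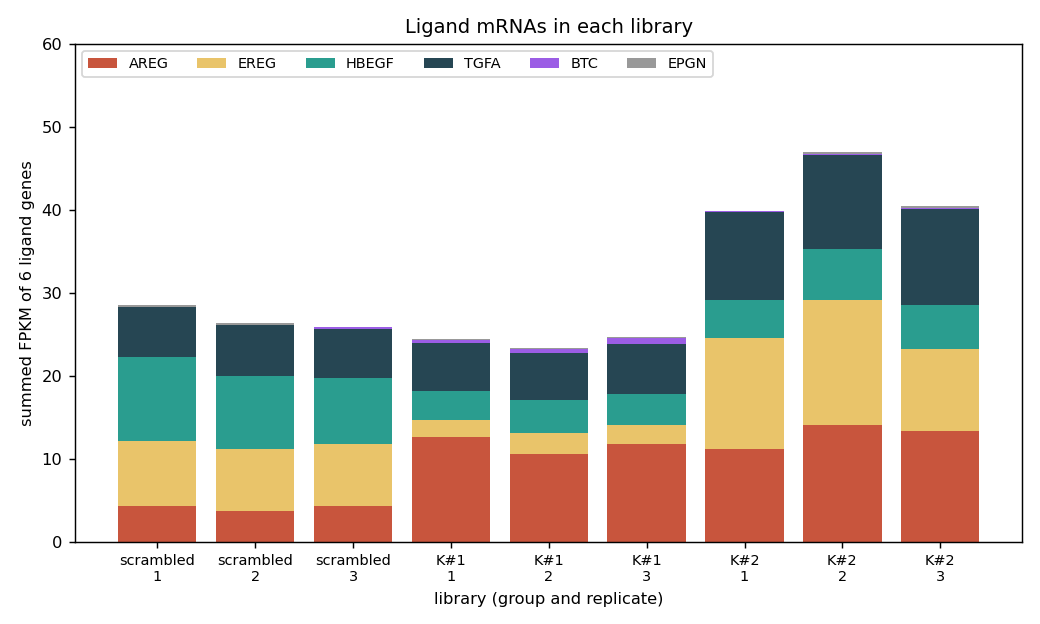
FPKM of the ligands added up (y axis, linear, starting at 0) in each of the 9 libraries (x axis), with 1 colour per ligand. AREG makes up 14.1 to 16.5% of the bar in scrambled libraries, 45.3 to 51.4% in those of siCyclin K#1 and 28.05 to 33.0% in those of siCyclin K#2.

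To test whether the siRNAs differed from each other, their libraries were compared directly in the same fit. ERBB2 and BTC were higher with siCyclin K#1, and EREG, HBEGF and TGFA were lower. These are 5 of the 10 genes, against 29.4% of all genes tested (17.1% higher and 12.3% lower), and the libraries did not overlap for 6 genes (42.7% of all genes). EREG alone was past 3-fold (1 of 10, against 1.53%), with a difference of -2.42 (SE 0.14, limma adjusted p = 5.3e-06). TGFA differed by -0.93 (SE 0.05, limma adjusted p = 3.3e-06), ERBB2 by 0.62 (SE 0.05, adjusted p = 5.5e-05) and HBEGF by -0.49 (SE 0.12, adjusted p = 0.015). For BTC the difference was 1.32 (SE 0.40, limma adjusted p = 0.039), a call that was lost under 9 alternatives. Among these were leaving out any siCyclin K#2 library (limma adjusted p = 0.089, 0.085 and 0.090 without replicates 1, 2 and 3) and leaving out siCyclin K#1 replicate 2 (0.090) or 3 (0.129). The HBEGF call was lost without siCyclin K#1 replicate 1 (limma adjusted p = 0.0516), so that 4 of 10 genes differed with any 1 siCyclin K library left out.

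For the genes that did not pass, the intervals bound the difference between the siRNAs. On the log2 scale it was -0.08 for EGFR (95% interval -0.18 to 0.02, limma adjusted p = 0.21), -0.14 for AREG (-0.37 to 0.10, adjusted p = 0.38) and -0.01 for ERRFI1 (-0.14 to 0.12, adjusted p = 0.91). The ERBB3 row gave -0.08 (-0.20 to 0.03, limma adjusted p = 0.25). EPGN had a wide interval, 0.06 (-1.12 to 1.23, limma adjusted p = 0.96).

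With the 6 depleted libraries taken as 1 group, ERBB2, AREG and ERRFI1 rose and EGFR, the ERBB3 row and HBEGF fell. These are 6 of 10 genes, against 28.6% of all genes (17% higher and 11.5% lower). The same 6 genes did not overlap between the groups (32.6% of all genes), and none passed 3-fold (0 of 10, against 2.29%). The log2 fold changes were 1.55 for AREG (SE 0.10, limma adjusted p = 6.8e-06), 0.87 for ERBB2 (SE 0.18, adjusted p = 0.0058), 0.62 for ERRFI1 (SE 0.06, adjusted p = 5.8e-05) and -0.98 for HBEGF (SE 0.18, adjusted p = 0.0025). EGFR gave -0.33 (SE 0.06, limma adjusted p = 0.0019) and the ERBB3 row -0.24 (SE 0.06, adjusted p = 0.014, but 0.0718 without scrambled replicate 1 and 0.0548 without the trend). EREG (-0.49, SE 0.68, limma adjusted p = 0.64), whose siRNA groups lie on opposite sides of the scrambled one, and TGFA (0.41, SE 0.26, adjusted p = 0.29) did not pass in the pooled comparison. Neither did BTC (1.05, SE 0.50, limma adjusted p = 0.15) or EPGN (-0.31, SE 0.43, adjusted p = 0.64). An exact two-sided permutation test of 6 against 3 libraries gave p = 0.0238 for each of the 6 changed genes, the smallest p it allows. This p follows from the groups not overlapping and adds nothing to it. The permutation test and the pooled limma fit take the libraries of both siRNAs as alike, although ERBB2 and HBEGF differed between the siRNAs. For 3 against 3 libraries the exact test cannot go below 0.1.

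**Figure D4:**
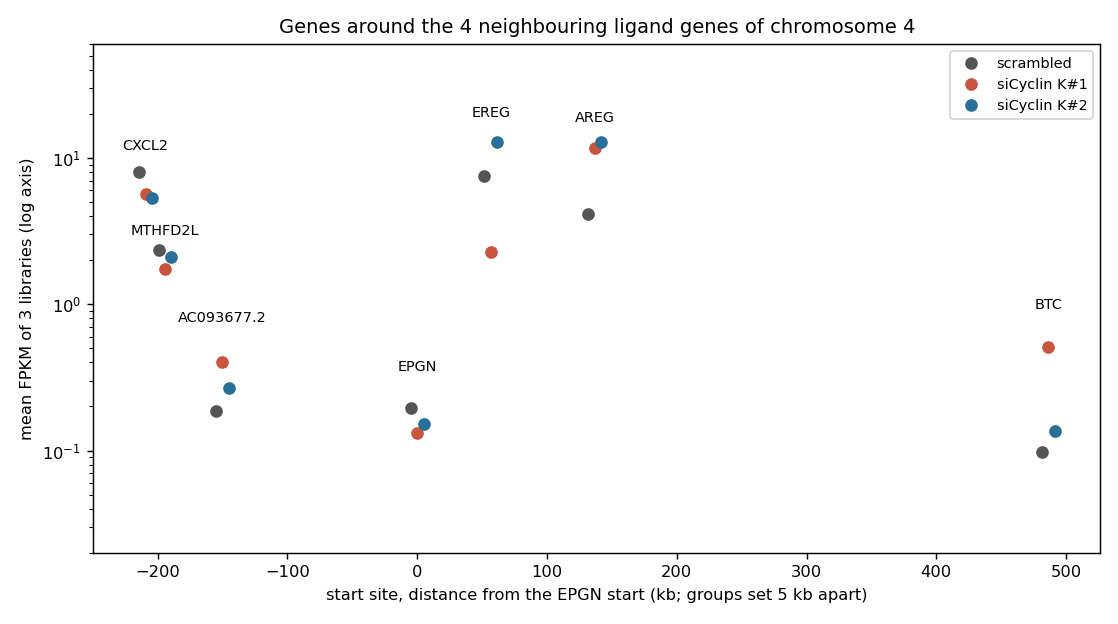
Mean FPKM of 3 libraries per group (y axis, log scale) of the 4 neighbouring ligand genes and of other genes near them, against the distance of the start site from that of EPGN (x axis, kb, groups set apart sideways to be seen). Genes with almost no signal are left out. EREG is lowest with siCyclin K#1 (2.27 FPKM), where AREG, which starts 56.4 kb after the end of EREG, is at 11.7.

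The 4 neighbouring genes of chromosome 4 thus did not move together. With siCyclin K#1, EREG fell while AREG and BTC rose. With siCyclin K#2, EREG and AREG both rose, while BTC and EPGN did not pass the test.

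The other genes of the pathway were followed in 5 lists, whose counts are to be read against all genes tested (with siCyclin K#1, 26.8% higher and 18.1% lower, and with siCyclin K#2, 19.8% higher and 15.2% lower). The lists were chosen with earlier results of these data known, so their counts are descriptions, and no list was tested as a set. Of the other receptors and ligands, 3 of 6 could be tested, since no reference feature carried the symbol NRG3, and ERBB4 and NRG4 were below the filter. Of these 3 genes 1 rose and 1 fell with siCyclin K#1, and with siCyclin K#2 1 rose and none fell. NRG1, the more abundant neuregulin, chosen here after its values were seen, fell from 8.79 FPKM to 6.42 with siCyclin K#1 (log2 fold change -0.45, limma adjusted p = 0.00017) and was at 8.94 with siCyclin K#2 (0.03, adjusted p = 0.77). NRG2, a neuregulin that binds ERBB3 and ERBB4, rose from 1.45 FPKM to 3.03 and 2.96 with siCyclin K#1 and siCyclin K#2 (log2 fold changes 1.01 and 0.98, limma adjusted p = 2.3e-05 and 4.7e-05). The receptor ERBB4 was listed at 0 in all 6 scrambled and siCyclin K#2 libraries and at 0.0973, 0.118 and 0.103 FPKM with siCyclin K#1 (41, 48 and 44 reads).

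The proteases that release the ligands, with their partners, were all tested. Of these 7 genes 4 rose and 2 fell with siCyclin K#1, and 4 rose and 2 fell with siCyclin K#2 (over all genes, 26.8% higher and 18.1% lower, then 19.8% and 15.2%). The median log2 fold changes were 0.39 and 0.20. RHBDF2, an adaptor that carries ADAM17 to the cell surface, rose from 2.89 to 6.97 FPKM with each siRNA (log2 fold change 1.24 with both, limma adjusted p = 4.7e-06 and 8.7e-06). ADAM17, the main protease for AREG, HBEGF and TGFA, fell from 50.5 FPKM to 39.9 and 41.2 (log2 fold changes -0.34 and -0.29, limma adjusted p = 5.2e-05 and 0.00021). ADAM15 rose from 2.77 to 5.96 and 5.37 FPKM, and ADAM10 from 12.2 to 21.3 and 14.0.

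Of 24 adaptors and effectors tested (of 25 listed), 16 rose and 3 fell with siCyclin K#1, and 12 rose and 1 fell with siCyclin K#2, beside the same shares of all genes (26.8% and 18.1%, then 19.8% and 15.2%). The median log2 fold changes were 0.30 and 0.20. Among the genes counted, PLCG1 and AKT2 were on rows joined with another gene, whose RNA cannot be told apart from theirs. STAT3, a transcription factor activated by the receptors, rose from 21.9 FPKM to 43.8 and 36.1. PTPN11, the phosphatase SHP2, rose from 22.3 to 36.0 and 47.6, and the adaptor GAB2 from 2.30 to 3.51 and 3.92. MAP2K1, the kinase MEK1 that activates ERK, fell from 52.7 to 20.5 and 30.7 FPKM (log2 fold changes -1.36 and -0.78, limma adjusted p = 1.9e-07 and 8.2e-06).

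Of 13 negative regulators tested (of 14), 5 rose and 3 fell with siCyclin K#1, and 4 rose and 3 fell with siCyclin K#2, against 26.8% and 18.1%, then 19.8% and 15.2%, of all genes. The median log2 fold changes were 0.16 and -0.07. LRIG1, a membrane protein that promotes receptor degradation, fell from 4.93 FPKM to 1.44 and 2.01 (log2 fold changes -1.71 and -1.27, limma adjusted p = 8.6e-06 and 8.7e-05). PTPRJ, a receptor phosphatase, rose from 18.4 to 53.0 and 42.3 FPKM (log2 fold changes 1.52 and 1.18, limma adjusted p = 1.6e-05 and 0.00012). The ubiquitin ligase CBLB rose from 1.17 to 2.94 and 1.89 FPKM, and the phosphatase PTPN1 fell from 41.2 to 31.1 and 28.1.

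Of 13 genes known to be induced by ERK signaling, 1 rose and 10 fell with siCyclin K#1, and none rose and 6 fell with siCyclin K#2. Of all genes 18.1% fell and 26.8% rose with siCyclin K#1, and 15.2% fell and 19.8% rose with siCyclin K#2. This list, like the others, was chosen with earlier results of these data known. The median log2 fold changes were -0.74 and -0.30. FOSL1, a subunit of the AP-1 transcription factor, fell from 115 FPKM to 17.5 and 66.8 (log2 fold changes -2.71 and -0.78, limma adjusted p = 1.1e-07 and 0.00025). SPRY4, a feedback inhibitor of the pathway, fell from 4.31 to 1.08 and 1.34, and the ERK phosphatase DUSP6 from 4.67 to 2.11 and 2.25. ETV5, in a row joined with DGKG, fell from 4.89 to 2.89 and 3.67. ERRFI1, itself known to be induced by this signaling, rose with both siRNAs.

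**Figure D5:**
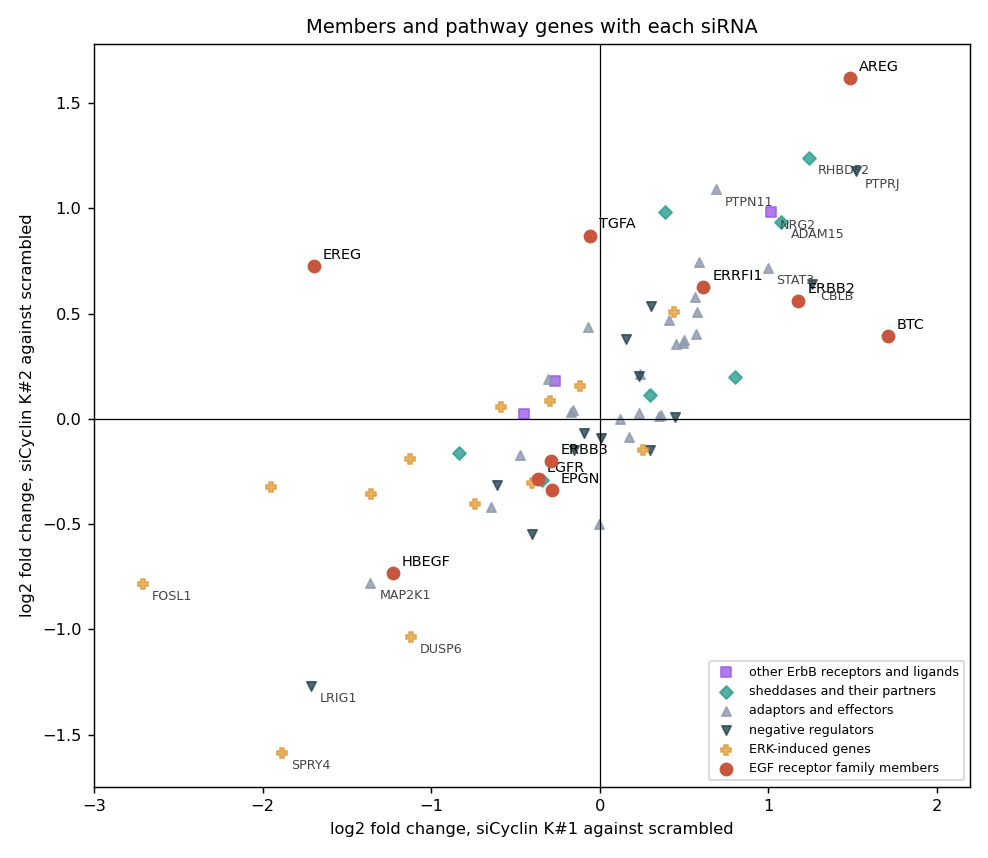
Log2 fold change with siCyclin K#1 (x axis) against that with siCyclin K#2 (y axis), both against the same scrambled libraries, for the 10 genes (circles, with ERBB3 standing for its joined row) and the genes of the 5 pathway lists (other symbols). EREG at -1.70 and 0.72 lies farther out than the other genes of the upper left part, which include TGFA at -0.05 and 0.87, and FOSL1 lies farthest to the left at -2.71.

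To find genes with a like pattern, Pearson's r with 11242 other genes (mean of at least 1 FPKM) was taken over the 9 libraries for AREG and HBEGF, on log2(FPKM + 0.1). Among the closest to AREG were ITGB1P1 (r = 0.994), an ITGB1 pseudogene whose reads may come from ITGB1, and BAIAP2L1 (r = 0.992), which had means of 6.51, 14.1 and 14.5 FPKM with scrambled siRNA, siCyclin K#1 and siCyclin K#2. The closest to HBEGF were STX3 (r = 0.993), ZNF593 (r = 0.989) and TIMP1 (r = 0.988), a metalloprotease inhibitor with means of 99.6, 58.7 and 71.5 FPKM. These values describe 9 libraries that share their groups, and no test was made of them.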

How the data were processed

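RNA from 9 libraries of A549 cells was sequenced in pairs by the authors (Illumina HiSeq X), and FPKM per feature was made by the authors with StringTie 1.3.3b and deposited for each library. The aligner, the annotation release and the strand setting are not given in the sources used here. Growth media differ between the labels and the methods. The members and gene lists were chosen with earlier results of these data known.

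FPKM values were added up where a reference gene had several rows, and loci without a reference gene were left out, which left 21048 genes with at least 0.1 FPKM in at least 3 libraries. Differences were tested on log2(FPKM + 0.1), a scale that understates the change of low genes, by linear models with a moderated, intensity-dependent variance (limma 3.58.1, R 4.3.3) and Benjamini-Hochberg adjustment. The 3 groups shared a fit, and both siRNAs together were fitted as 1 group. All 10 members were named, and up to 4 genes per pathway list that changed the same way with each siRNA, by the smaller of their absolute fold changes. Exact permutation tests used scipy 1.17.1.

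Given GENCODE 29 exon lengths, 85.05% of the nonzero FPKM values of 27835 features were whole numbers of fragments within 0.05. These gave the counts printed as reads. Loci assembled by StringTie, which include EREG and the ERBB3 row, were not resolved. Alternatives were other constants, filters, rescaling, a replicate block, and each library left out. A test on the recovered reads (limma-voom) was added after the data were seen. A gene with a pattern like that of AREG is not reported here.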

Additional observations from a re-analysis of the deposited data

Results flagged for a closer look

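The effects of the siRNAs, which are meant to deplete the same mRNA, differed for 5 of the 10 genes when tested directly against each other (siCyclin K#1 minus siCyclin K#2, on log2(FPKM + 0.1), by limma), against 29.4% of all genes tested. With any 1 siCyclin K library left out the count was 4, through the loss of BTC or, without siCyclin K#1 replicate 1, of HBEGF. EREG differed by -2.42, with a fall with siCyclin K#1 (-1.70) and a rise with siCyclin K#2 (0.72). TGFA differed by -0.93, with -0.05 and 0.87. ERBB2 differed by 0.62, with a rise in both (1.18 and 0.56). HBEGF differed by -0.49, with a fall in both (-1.23 and -0.73). BTC differed by 1.32, with 1.71 and 0.39, on 12 to 13 reads per library with siCyclin K#2. CCNK itself kept 11.5% and 12.03% of the scrambled mean, with a difference of -0.06 between the siRNAs (95% interval -0.28 to 0.17, limma adjusted p = 0.73). The cause of these differences was not tested.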

How the results depend on the processing

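For single genes 831 of 854 alternative values kept their direction and their side of the threshold. Many alternatives, such as no filter, no trend, the replicate block or leaving out a library outside the comparison, cannot alter the fold change. Its direction was fixed in advance there, and only the adjusted p could move. Libraries with the same replicate number showed no shared deviation from their groups (mean correlation of deviations -0.0058 over 9 pairs, range -0.0711 to 0.0379). Such values cannot tell whether these libraries were cultured or processed together. In both other groups at once, 0 of 9 libraries were closest to their own number. The replicate block left 8, 8, 5 and 6 members changed in the 4 comparisons, the counts without it. Members past 3-fold with siCyclin K#1, 2 in the report, were 5 at a fold over 2, 0 with a constant of 0.5 or 1, and 1 with a mean of at least 1 FPKM, after quantile normalization or by limma-voom on 8 members. With a library left out they were 1 to 2 (1 without scrambled replicate 1 or 2 or siCyclin K#1 replicate 3). With siCyclin K#2, 1 in the report, they were 0 with a constant of 0.5 or 1 and after median-ratio or quantile rescaling, and 0 to 1 with a library left out. For both siRNAs together, 0 in the report, they were 1 at a fold over 2 and 0 to 1 with a library left out (1 without scrambled replicate 1 or siCyclin K#1 replicate 2). Only genes that had not passed reversed. EPGN with siCyclin K#2 against scrambled was 0.23 without siCyclin K#2 replicate 1 (-0.70 to 0.23 over the libraries left out). EPGN between the siRNAs was -0.028 with a constant of 0.5, -0.021 with 1, -0.12 after quantile normalization, -0.063 without siCyclin K#1 replicate 1 and -0.52 without siCyclin K#2 replicate 1 (-0.52 to 0.41 over the libraries left out). ERRFI1 between the siRNAs was 0.061 after quantile normalization, 0.018 without siCyclin K#1 replicate 3 and 0.041 without siCyclin K#2 replicate 2 (-0.066 to 0.041 over the libraries left out). Calls were lost for the ERBB3 row without the trend (adjusted p = 0.0506 with siCyclin K#2, 0.0548 for both) and without scrambled replicate 1 (0.0718 for both), for HBEGF between the siRNAs without siCyclin K#1 replicate 1 (0.0516), and for BTC between the siRNAs under 9 alternatives (adjusted p up to 0.129, by limma). TGFA with siCyclin K#1 passed after quantile normalization (-0.17, adjusted p = 0.027). The cause was not tested. Depth limits BTC and EPGN.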
